A study of Homo sapiens with 9 samples.

Results

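The genes described here are 10 transcription factor and immediate early genes of the AP-1 network, namely FOS, FOSL1, FOSL2, JUN, JUNB, JUND, ATF3, EGR1, IER3 and MYC, picked by gene symbol out of 58920 genes listed in each count table. RNA of the colorectal cancer cell line LIM1215 was sequenced in 9 libraries, 3 for each of 3 lines. LIM1215 is a RAS wild-type line that is sensitive to cetuximab, an antibody that blocks the epidermal growth factor receptor (EGFR). The libraries labelled Parental came from LIM1215 cells grown without the antibody beside the selection (LIM1215-parental), and those labelled Resistant_1 and Resistant_2 came from populations selected side by side under rising cetuximab doses (LIM1215-R1 and LIM1215-R2). Both resistant lines are mixed populations and not clones, and the study found activating HRAS mutations in a part of the cells of each. All lines were grown in RPMI with serum, and the resistant lines were kept on cetuximab after the selection unless the study says otherwise. A supplementary legend gives the cultures used for sequencing as basal and untreated. The same legend calls the 3 replicates of a line technical, so the tests measure the spread between these libraries, and lines and their cultures cannot be told apart.

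AP-1 is a dimer of a FOS protein (FOS, FOSB, FOSL1, FOSL2) and a JUN protein (JUN, JUNB, JUND), or of JUN proteins alone, that binds a short DNA element and switches on genes of growth, invasion and stress. In epithelial cells growth factor receptors signal through RAS, RAF, MEK and ERK to serum response factor and its ETS partners, which start transcription of immediate early genes such as FOS and EGR1 within minutes. ERK also stabilises the FOS family proteins, and FOSL1 (FRA-1) is known as a gene that stays on under sustained ERK signalling. MYC is a growth regulator that is driven in the colon by Wnt signalling as well as by mitogens.

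The promoter sequences of RefSeq (GRCh38.p14) held windows for 7 of the 10 genes (FOS, FOSL2, JUN, JUNB, JUND, ATF3 and EGR1). The 250 bases before the start of 4 of them are shown 5′ to 3′ to set the elements of these pathways beside the results below. In those results JUN and ATF3 were higher in both resistant lines, FOS was lower in both, and EGR1 was lower in LIM1215-R1. The EGR1 call was lost in 9 of 18 alternative settings. Capitals mark matches, on either strand, to the AP-1 site TGACTCA, the related AP-1 site of 8 bases TGACATCA, the cAMP response element TGACGTCA, and the CArG box, the element of serum response factor.
JUN (chr1:58784048-58784297, minus strand): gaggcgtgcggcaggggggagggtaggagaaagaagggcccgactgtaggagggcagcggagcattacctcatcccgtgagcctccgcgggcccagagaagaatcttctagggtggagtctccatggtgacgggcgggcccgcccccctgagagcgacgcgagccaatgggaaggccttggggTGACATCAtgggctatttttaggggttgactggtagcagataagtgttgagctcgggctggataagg
ATF3 (chr1:212565157-212565406, plus strand): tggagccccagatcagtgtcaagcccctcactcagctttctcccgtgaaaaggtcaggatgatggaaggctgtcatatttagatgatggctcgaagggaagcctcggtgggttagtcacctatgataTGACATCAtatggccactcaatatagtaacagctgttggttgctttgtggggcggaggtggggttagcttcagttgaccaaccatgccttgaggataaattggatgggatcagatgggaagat
EGR1 (chr5:138465229-138465478, plus strand): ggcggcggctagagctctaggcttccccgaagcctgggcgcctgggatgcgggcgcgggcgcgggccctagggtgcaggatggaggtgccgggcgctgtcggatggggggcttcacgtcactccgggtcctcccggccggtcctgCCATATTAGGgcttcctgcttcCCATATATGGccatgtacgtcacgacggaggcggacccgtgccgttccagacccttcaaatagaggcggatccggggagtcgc
FOS (chr14:75278578-75278827, plus strand): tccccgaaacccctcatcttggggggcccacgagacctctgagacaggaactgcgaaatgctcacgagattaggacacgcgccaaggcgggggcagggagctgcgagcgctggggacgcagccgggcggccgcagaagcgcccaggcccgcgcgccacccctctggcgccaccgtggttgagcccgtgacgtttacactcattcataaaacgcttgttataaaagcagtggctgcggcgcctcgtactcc
JUN and ATF3 each held 1 match to TGACATCA, 67 to 60 bases before the start in JUN and 123 to 116 bases before the first of its 2 starts in ATF3. EGR1 held 2 CArG boxes, 105 to 96 and 83 to 74 bases before the start. FOS held no exact match to these motifs in this window. Only exact matches were counted, so a variant of an element was passed over in any window. One such stretch is tgacgttt in the FOS window, which begins like TGACGTCA, and whether it acts as an element was not tested. Bases further upstream were not searched, so an element there would have been missed. The FOS window held a TATA box (TATAAA) 33 to 28 bases before the start. Of the genes not shown, JUND held TGACGTCA 200 to 193 bases before the start, and FOSL2, JUNB and the second start of ATF3 held no match to these AP-1, cAMP or CArG motifs. TGACATCA was added to the search after the sequences were read. Of the 35116 windows in the table, 2.37% held TGACATCA in the same 250 bases, 1.16% a CArG box, 1.65% TGACGTCA, 4.20% TGACTCA and 10.7% TATAAA. The AP-1 and cAMP motifs share their first 4 and last 3 letters. A match describes the sequence and is not evidence that a factor bound there, and the counts do not tell which ATF3 start was used.

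Depth was similar across libraries. A library held 13737416 to 18725014 counts, with TMM scaling factors of 0.984 to 1.02 and 6.57% to 7.26% of counts in mitochondrial genes. The colon epithelial markers EPCAM, CDH1, KRT8, KRT18, CDX1, CDX2 and VIL1 were counted in all 3 lines, with KRT8, KRT18 and VIL1 higher and EPCAM, CDX1 and CDX2 lower in both resistant lines, and their part in the results was not tested. The marker KRT20 was listed at 0 in every library. Among markers of fibroblasts and muscle, endothelium and leukocytes, PTPRC, CD3E and COL1A2 were at 0, and COL3A1, DCN, VWF and CDH5 had at most 7 counts over the 9 libraries. COL1A1 had 134 counts, ACTA2 225 and PECAM1 15, the last lower in both resistant lines. CD68, a lysosomal protein of macrophages, stood at 8.30, 13.4 and 9.79 CPM on average in the parental, LIM1215-R1 and LIM1215-R2 libraries and was higher in LIM1215-R1, and the part of these markers in the results was not tested. A 0 in these tables does not show that a gene is off, since EIF4A1, a translation factor that cells need, was listed at 0 as well. All 10 genes passed the minimum of 10 counts over the 9 libraries, as did 19102 genes in all, and the lowest count of a library was 108 (JUN). Levels are CPM, a gene's counts scaled to a common library size with TMM factors, and each ± is the SD of 3 libraries.

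The largest change among the 10 genes was in FOSL1, whose protein FRA-1 pairs with JUN proteins and is linked to invasion. FOSL1 stood at 15.8, 18.6 and 15.1 CPM in the parental libraries, 40.1, 46.9 and 42.7 for LIM1215-R1 and 39.6, 40.6 and 43.9 for LIM1215-R2. Every resistant library lay above every parental library, and the resistant lines overlapped. In such bulk RNA from mixed populations, a change in all cells and a change in a part of them cannot be told apart. By the quasi-likelihood test of edgeR, which gave every adjusted p below (Benjamini-Hochberg, all 19102 genes) unless another tool is named, FOSL1 rose 2.63-fold in LIM1215-R1 (log2 fold change 1.40, SE 0.0853, adjusted p = 2.35e-13) and 2.52-fold in LIM1215-R2 (1.33, SE 0.0856, adjusted p = 6.61e-13). The 95% intervals were 2.33 to 2.97 and 2.23 to 2.85. Over 18 alternatives the log2 fold change of FOSL1 lay between 1.24 and 1.48 in LIM1215-R1 and between 1.27 and 1.42 in LIM1215-R2. These values stayed under the log2 fold change of 1.5 that the study asked of a differentially expressed gene (DEG). LIM1215-R2 stood at 0.957 times the level of LIM1215-R1 (95% interval 0.858 to 1.07, adjusted p = 0.678).

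FOS, the founding member of the family and an early target of ERK signalling, moved the other way. FOS stood at 17.8, 15.9 and 15.4 CPM for parental cells, 10.2, 11.7 and 9.70 for LIM1215-R1 and 9.51, 9.23 and 10.1 for LIM1215-R2. The lowest parental library lay above the highest resistant one. FOS fell to 0.644 times the parental level in LIM1215-R1 (log2 fold change -0.64, SE 0.104, adjusted p = 1.78e-05) and to 0.587 times in LIM1215-R2 (-0.77, SE 0.106, adjusted p = 1.25e-06). Between the resistant lines the log2 difference was -0.14 (adjusted p = 0.512).

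FOSL2 encodes FRA-2, another partner of the JUN proteins. FOSL2 stood at 133, 142 and 132 CPM for parental cells, 119, 131 and 120.1 for LIM1215-R1 and 101, 105 and 102 for LIM1215-R2. The 3 lines did not overlap in any pair, with the parental libraries highest and the LIM1215-R2 libraries lowest. The gap between parental cells and LIM1215-R1 was very narrow, with the lowest parental library at 131.8 CPM and the highest LIM1215-R1 library at 131.5. FOSL2 fell in LIM1215-R2 to 0.758 times the parental level (log2 fold change -0.40, SE 0.0531, adjusted p = 7.55e-07). In LIM1215-R1 it did not pass the threshold of 0.01 (log2 fold change -0.14, SE 0.0526, adjusted p = 0.046), though it did without LIM1215-R1 replicate 2 (-0.18, adjusted p = 0.00857) and once GC and length trends were taken out (-0.14, adjusted p = 0.00334). The FOSL2 gene overlaps ENSG00000270640 on the same strand, and how reads in the overlap were treated in counting is not given in the sources used here. FOSB, the fourth FOS gene, was counted at 0.715 ± 0.292 CPM for parental cells, 1.10 ± 0.139 for LIM1215-R1 and 1.17 ± 0.335 for LIM1215-R2, with adjusted p = 0.183 and 0.133 against parental cells.

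The make-up of FOS family RNA differed between lines. Per kilobase of the reference transcript, which allows levels of different genes to be compared, FOSL1 made up 24.8%, 27.5% and 24.8% of the sum of FOS, FOSL1 and FOSL2 in the parental libraries. It made up 51.1%, 52.3% and 52.7% in LIM1215-R1 and 54.2%, 54.3% and 56.4% in LIM1215-R2. FOSL2 held the largest share in every parental library (53.6% ± 1.02) and FOSL1 in every resistant library. This order rests on dividing by transcript length, since by counts alone FOSL2 stayed largest (69.7% in LIM1215-R1 and 66.9% in LIM1215-R2) and FOSL1 went from 9.78% to 24.4% and 26.9%. The share of FOS went from 20.7% ± 1.73 in parental cells to 10.3% ± 0.496 in LIM1215-R1 and 10.3% ± 0.292 in LIM1215-R2. Within a library, the log2 ratio of FOSL1 to FOS averaged 0.31 ± 0.199 in parental cells, 2.34 ± 0.0876 in LIM1215-R1 and 2.41 ± 0.0427 in LIM1215-R2, which are ratios of 1.24, 5.07 and 5.32. A ratio inside a library does not move with the scaling of libraries. Parental and resistant libraries did not overlap in any of these shares or in the ratio, and each difference had p = 0.1 in a two-sided exact permutation test, the smallest that 3 against 3 libraries allow.

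**Figure D1:**
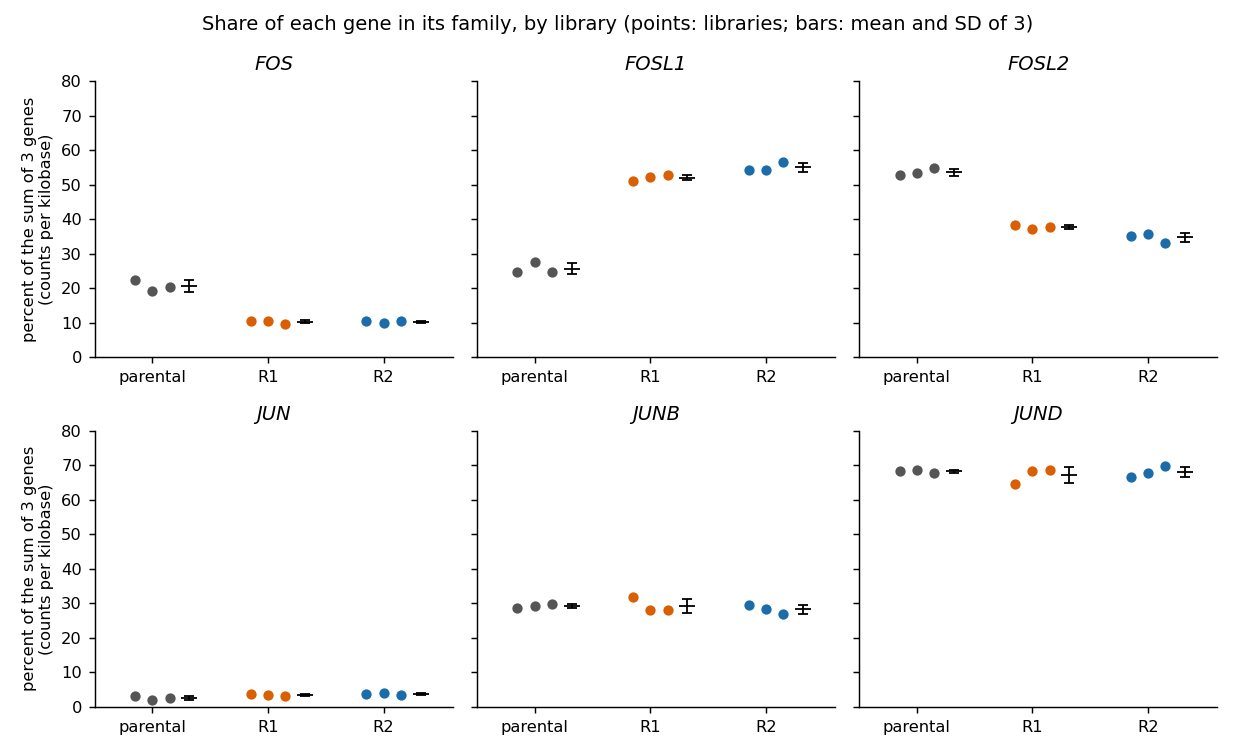
Share of each gene in the summed counts per kilobase of FOS, FOSL1 and FOSL2 (upper row) and of JUN, JUNB and JUND (lower row), in percent; each point is 1 library and the bars give the mean and SD of 3. FOSL1 rises from 25.7% of its family in parental cells to 52.0% in LIM1215-R1 and 55.0% in LIM1215-R2, while JUND holds 68.2%, 67.2% and 68.0% of its family.

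JUN, the main partner of FOS proteins and a target of JNK signalling, was the lowest of the 10 genes per kilobase in parental cells. JUN stood at 10.8, 7.80 and 9.19 CPM for parental cells, 16.7, 17.8 and 16.2 for LIM1215-R1 and 14.0, 15.2 and 14.1 for LIM1215-R2. The 3 lines were separate, with LIM1215-R1 highest. JUN rose 1.81-fold in LIM1215-R1 (log2 fold change 0.86, SE 0.109, adjusted p = 3.41e-07) and 1.55-fold in LIM1215-R2 (0.63, SE 0.111, adjusted p = 4.78e-05). LIM1215-R2 stood at 0.854 times LIM1215-R1, which did not pass (adjusted p = 0.165).

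JUNB and JUND, which give less active AP-1 dimers than JUN in many settings, passed in LIM1215-R1, and both calls were lost once GC content and length trends were taken out together. JUNB stood at 57.7, 66.8 and 57.9 CPM for parental cells, 78.0, 80.65 and 77.5 for LIM1215-R1 and 63.3, 60.5 and 62.1 for LIM1215-R2. JUND stood at 145, 165 and 139 CPM for parental cells, 167, 207 and 201 for LIM1215-R1 and 150.3, 153 and 169.5 for LIM1215-R2. For both genes the LIM1215-R1 libraries lay above the parental ones, for JUND by a narrow gap, and the LIM1215-R2 libraries overlapped the parental ones. Both rose in LIM1215-R1, JUNB 1.30-fold (log2 fold change 0.38, SE 0.0611, adjusted p = 1.53e-05) and JUND 1.28-fold (0.36, SE 0.0686, adjusted p = 1.21e-04). In LIM1215-R2 the log2 fold changes were 0.03 for JUNB (adjusted p = 0.768) and 0.08 for JUND (adjusted p = 0.452). These 2 single-exon genes have the highest GC content of the 10, 64.9% and 69.9% of the transcript. Once the trends on GC content and length were taken out of every library, an alternative added after the data were seen, JUNB in LIM1215-R1 fell below the threshold (log2 fold change 0.14, adjusted p = 0.0217), as did JUND (0.06, adjusted p = 0.307). In the same fit JUND in LIM1215-R2 was lower than in parental cells (-0.145, adjusted p = 0.0056).

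Within the JUN family, JUND made up on average 68.2% of JUN family RNA per kilobase in parental cells, 67.2% in LIM1215-R1 and 68.0% in LIM1215-R2, and JUNB 29.3% ± 0.504, 29.3% ± 2.13 and 28.3% ± 1.35. The ranges of all lines overlapped for both genes. JUN made up 2.53% ± 0.556 of the family in parental cells, 3.53% ± 0.275 in LIM1215-R1 and 3.70% ± 0.286 in LIM1215-R2, and here the parental libraries lay below all others (exact permutation p = 0.1, the smallest possible).

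ATF3, a stress-induced partner of JUN proteins that can repress or activate, showed a graded pattern. ATF3 stood at 10.6, 10.8 and 10.7 CPM for parental cells, 20.5, 20.4 and 18.9 for LIM1215-R1 and 14.7, 13.6 and 14.6 for LIM1215-R2. The 3 lines did not overlap. ATF3 rose 1.87-fold in LIM1215-R1 (log2 fold change 0.90, SE 0.0925, adjusted p = 8.08e-09) and 1.34-fold in LIM1215-R2 (0.42, SE 0.0963, adjusted p = 0.00106). The difference between the resistant lines passed its own test, with LIM1215-R2 at 0.717 times LIM1215-R1 (log2 -0.48, SE 0.0891, adjusted p = 4.07e-04), and it passed in all 18 alternatives.

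**Figure D2:**
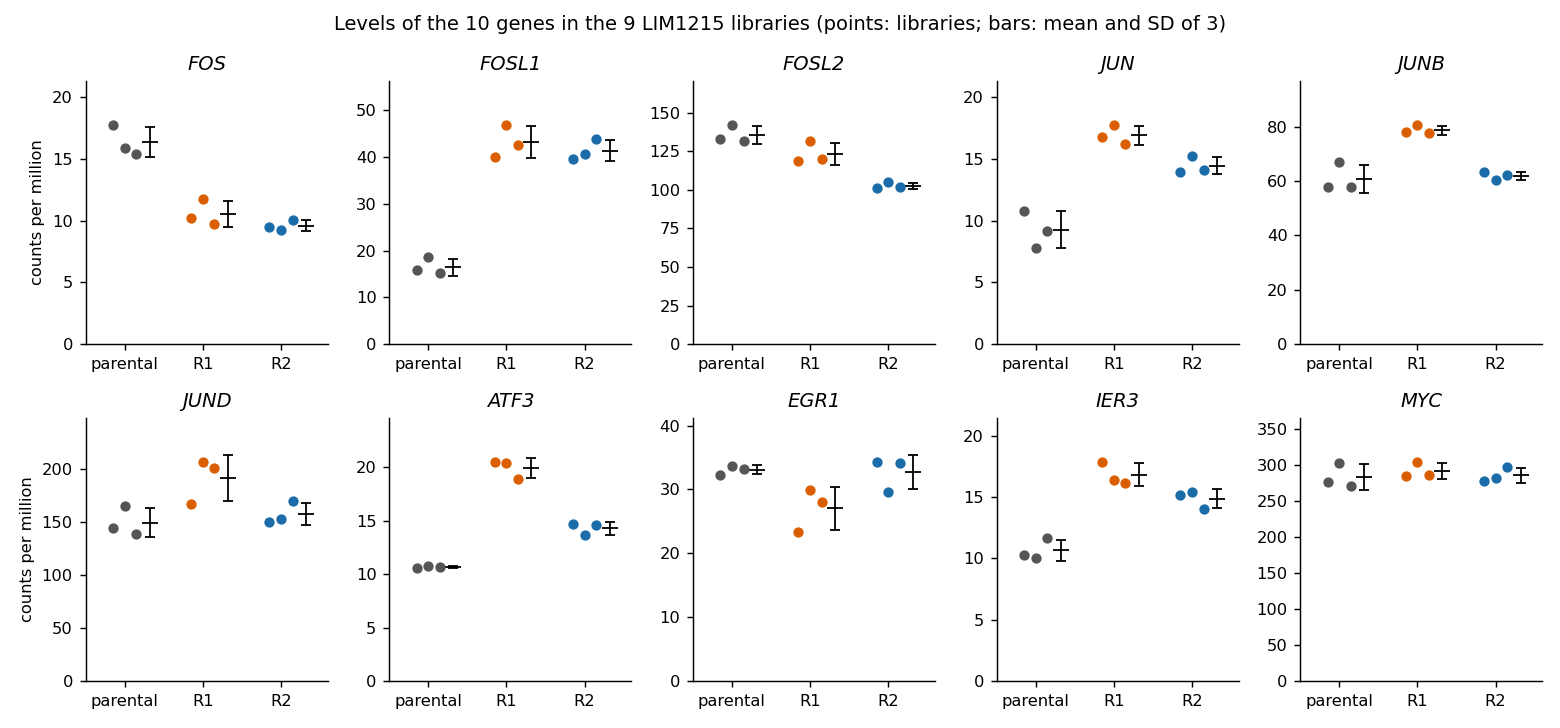
Levels (CPM) of the 10 genes in each of the 9 libraries (points), with the mean and SD of 3 libraries beside them; each panel has its own axis, which starts at 0. FOSL1, JUN, ATF3 and IER3 lie higher in all 6 resistant libraries than in all 3 parental ones, FOS lies lower, and MYC overlaps in all lines.

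EGR1, a zinc finger factor that serum response factor switches on, was lower in LIM1215-R1 and close to the parental level in LIM1215-R2. EGR1 stood at 32.3, 33.7 and 33.3 CPM for parental cells, 23.3, 29.9 and 28.0 for LIM1215-R1 and 34.4, 29.6 and 34.2 for LIM1215-R2. LIM1215-R1 lay below parental cells, with replicate 1 lowest, and LIM1215-R2 overlapped both. EGR1 fell in LIM1215-R1 to 0.817 times the parental level (log2 fold change -0.29, SE 0.0851, adjusted p = 0.00787). This call was lost in 9 of 18 alternatives: in DESeq2 (adjusted p = 0.0131), in the fit to the 6 libraries alone, with at least 10 counts in every library, and without any 1 of parental replicates 1, 2 or 3, LIM1215-R1 replicates 1 or 3, or LIM1215-R2 replicate 1. Without LIM1215-R1 replicate 1 the log2 fold change was -0.19 (adjusted p = 0.0757). In LIM1215-R2 it was -0.02 (95% interval of the ratio 0.878 to 1.11, adjusted p = 0.916).

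IER3 encodes a small protein that ERK phosphorylates and that protects cells from apoptosis. IER3 stood at 10.3, 10.0 and 11.7 CPM for parental cells, 17.9, 16.4 and 16.1 for LIM1215-R1 and 15.2, 15.4 and 14.0 for LIM1215-R2. Its 3 lines did not overlap. IER3 rose 1.57-fold in LIM1215-R1 (log2 fold change 0.65, SE 0.0993, adjusted p = 5.99e-06) and 1.39-fold in LIM1215-R2 (0.48, SE 0.101, adjusted p = 4.46e-04). The IER3 transcript also matches 5 alternate sequences of hg38, so its counts depend on whether these were part of the alignment, which is not given in the sources used here. None of the other 9 genes had such a copy.

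MYC was the gene with the narrowest differences. MYC stood at 276, 303 and 271 CPM for parental cells, 284, 305 and 286 for LIM1215-R1 and 277, 283 and 297 for LIM1215-R2. All lines overlapped. The ratio to parental cells was 1.03 in LIM1215-R1 (95% interval 0.963 to 1.10, adjusted p = 0.536) and 1.01 in LIM1215-R2 (0.942 to 1.08, adjusted p = 0.878).

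Per kilobase, JUND and MYC were the most abundant of the 10 transcripts in every line, followed by JUNB. JUND stood at 77.5 CPM per kilobase and MYC at 76.2 in parental cells, and their libraries overlapped there and in LIM1215-R2 but not in LIM1215-R1, where JUND stood at 99.4 and MYC at 78.5. FOSL1 went from the sixth place in parental cells (9.70 ± 1.07 CPM per kilobase) to the fourth in LIM1215-R1 (25.4 ± 2.02) and LIM1215-R2 (24.3 ± 1.32), above FOSL2 in every resistant library. In parental cells the neighbours EGR1, FOSL1, IER3 and FOS overlapped one with the next. FOS and JUN took the last 2 places in the resistant lines, at 5.01 and 5.19 CPM per kilobase in LIM1215-R1 and 4.56 and 4.43 in LIM1215-R2, and overlapped there.

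Counted together, 6 of the 10 genes were higher in LIM1215-R1 than in parental cells at an adjusted p of at most 0.01 (FOSL1, JUN, JUNB, JUND, ATF3 and IER3), beside 14.0% of all genes tested, and 2 were lower (FOS and EGR1), beside 13.4%. With the GC and length trends removed, 4 were higher and 3 lower in LIM1215-R1. In LIM1215-R2, 4 were higher (FOSL1, JUN, ATF3 and IER3), beside 12.3%, and 2 were lower (FOS and FOSL2), beside 11.6%. Well counted genes pass more often, and among the 10085 genes whose mean count was 100 or more 40.3% were called in LIM1215-R1 and 34.9% in LIM1215-R2 in either direction. None of the 10 reached the DEG threshold in either line, which 5.14% and 4.82% of all genes tested did. The median size of the log2 fold change was 0.51 among the 10 genes in LIM1215-R1 and 0.41 in LIM1215-R2, against 0.19 and 0.17 among the well counted genes. The 10 genes were chosen with earlier results of these data known, so these counts and sizes are not independent evidence. The 2 comparisons share the parental libraries, so a high or low parental library moves both.

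**Figure D3:**
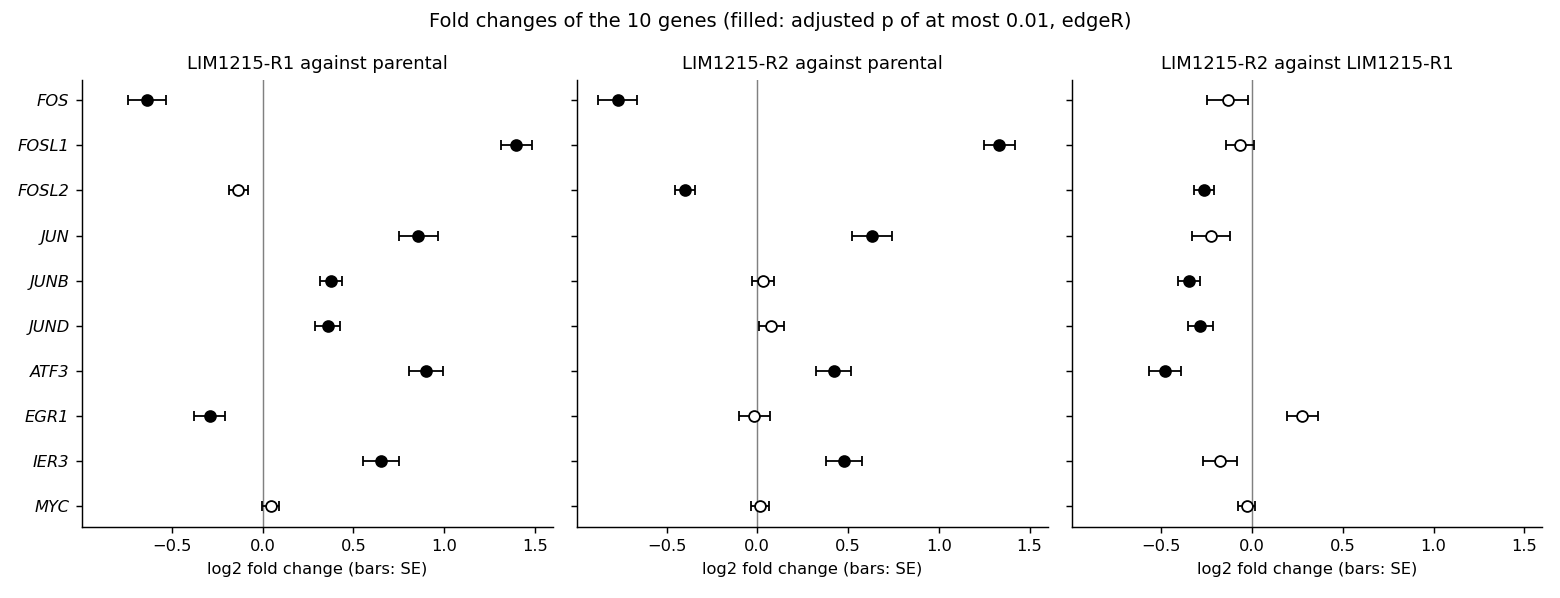
Log2 fold changes of the 10 genes in the 3 comparisons, with SE bars; filled points had an adjusted p of at most 0.01 in edgeR and open points did not. FOSL1 stands at 1.40 and 1.33 against parental cells, and in LIM1215-R2 against LIM1215-R1 the filled points are FOSL2, JUNB, JUND and ATF3, all below 0.

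Between the resistant lines, 4 of the 10 genes were lower in LIM1215-R2 than in LIM1215-R1, beside 3.77% of all genes tested, and none was higher, beside 3.39%. Besides ATF3 these were JUNB at 0.787 times LIM1215-R1 (log2 -0.35, SE 0.0611, adjusted p = 2.33e-04), JUND at 0.822 times (-0.28, SE 0.0684, adjusted p = 0.00539) and FOSL2 at 0.833 times (-0.26, SE 0.0534, adjusted p = 0.00104). JUNB did not overlap between the lines and passed in all 18 alternatives, whereas JUND overlapped and failed in 5, among them without LIM1215-R1 replicate 2 (-0.22, adjusted p = 0.0304), LIM1215-R1 replicate 3 (adjusted p = 0.0525), LIM1215-R2 replicate 1 (adjusted p = 0.0573) or LIM1215-R2 replicate 2 (adjusted p = 0.0511). FOSL2 failed without LIM1215-R2 replicate 1 (adjusted p = 0.011). EGR1 stood at 1.21 times LIM1215-R1 (adjusted p = 0.0313) and passed without LIM1215-R1 replicate 2 (log2 0.35, adjusted p = 0.00876) and with the GC and length trends removed (0.34, adjusted p = 0.000506). Among the well counted genes 11.1% were called in this comparison, and 0.764% of all genes tested were DEGs, none of them among the 10.

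The genes most like FOS in their mean log2 CPM over the 3 lines, each centred on its mean, were PRELID2, PLEKHG5 and RNASET2, out of 9303 genes with a mean of at least 10 CPM. Those most like FOSL1 were MAPK12, SEC14L2 and FRMD5, which in LIM1215-R1 changed by 1.41, 1.48 and 1.43 on the log2 scale. Those most like EGR1 were ZDHHC23, NPAT and PRIM1. With 3 lines such a likeness rests on 3 points.

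Of 24 other AP-1 and bZIP partner genes, 22 were tested, and 6 were higher and 5 lower in LIM1215-R1, against 3 and 3 in LIM1215-R2, beside 40.3% and 34.9% of well counted genes called in either direction. The median log2 fold change of the list was 0.07 and 0.04, beside -0.01 and 0.00 over all genes tested. BATF2, a bZIP partner of JUN proteins, stood at 7.54 ± 0.300 CPM for parental cells, 19.4 ± 3.31 for LIM1215-R1 and 14.8 ± 1.07 for LIM1215-R2 (log2 fold changes 1.37 and 0.98, adjusted p = 2.87e-10 and 2.61e-07). The small MAF gene MAFK rose by 0.64 and 0.56 on the log2 scale (adjusted p = 3.14e-08 and 2.64e-07). NFE2L2, which drives the oxidative stress response with small MAF partners, fell by 0.33 and 0.29 (adjusted p = 4.15e-06 and 1.99e-05), and CEBPD by 0.34 and 0.76 (adjusted p = 0.00681 and 7.00e-07). CEBPD was also lower in LIM1215-R2 than in LIM1215-R1 (log2 -0.42, adjusted p = 0.0063). It was the only gene of the list called there, beside 11.1% of well counted genes called in either direction. That count was 0 without any 1 of LIM1215-R1 replicates 2 and 3 and LIM1215-R2 replicates 1 and 2 and with the GC and length trends removed, and 5 with a replicate block or without parental replicate 2. Without parental replicate 1 or 3 or LIM1215-R1 replicate 3 the list had 3 genes lower in LIM1215-R1 in place of 5. CREB5, named after its values were seen, was at 0 in the 3 parental libraries and had 26 counts in all, so no fold is given. BATF and BATF3 had too few counts to be tested.

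Of 34 other immediate early genes, 32 were tested, and 12 were higher and 7 lower in LIM1215-R1, against 7 and 7 in LIM1215-R2. Beside them stand 14.0% higher and 13.4% lower of all genes tested in LIM1215-R1, 12.3% and 11.6% in LIM1215-R2, and 40.3% and 34.9% of well counted genes called in either direction. The median log2 fold change was 0.29 and 0.04, with calls in both directions. PHLDA1, an early gene of growth factor signalling, rose from 16.6 ± 1.15 CPM for parental cells to 106 ± 1.90 for LIM1215-R1 and 178 ± 7.65 for LIM1215-R2 (log2 fold changes 2.67 and 3.42, adjusted p = 8.41e-22 and 4.95e-24). DUSP5, a phosphatase of nuclear ERK, rose from 10.2 ± 0.721 CPM to 49.3 ± 1.98 and 38.4 ± 0.450 CPM (2.27 and 1.91, adjusted p = 1.51e-18 and 1.06e-16). NR4A3, an orphan nuclear receptor, rose from 0.407 ± 0.0818 CPM to 2.55 ± 0.665 and 1.12 ± 0.178 CPM (adjusted p = 2.06e-07 and 0.00296). NFKBIZ, an inducible NF-kB cofactor, fell from 86.5 ± 0.759 CPM to 47.5 ± 2.76 and 38.1 ± 1.78 CPM (-0.86 and -1.19, adjusted p = 4.02e-12 and 8.06e-15). Between the resistant lines 4 genes of the list were higher and 7 lower in LIM1215-R2. In that comparison 3.39% of all genes tested were higher and 3.77% lower, and 11.1% of well counted genes were called in either direction. The Kruppel-like factor KLF2 stood at 2.20 ± 0.129 for LIM1215-R1 and 5.78 ± 0.668 for LIM1215-R2, both below the 8.67 ± 1.10 CPM of parental cells (LIM1215-R2 against LIM1215-R1, log2 1.39, adjusted p = 1.99e-06). NR4A3 was lower in LIM1215-R2 than in LIM1215-R1 (log2 -1.18, adjusted p = 0.00335). Without LIM1215-R1 replicates 2 or 3 or LIM1215-R2 replicates 1 or 2, 2 genes were higher in place of 4. Without LIM1215-R2 replicate 1, 4 were lower in place of 7, as were 4 in LIM1215-R1 against parental cells without parental replicate 3. EGR3 had too few counts to be tested and ZFP36 was listed at 0.

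Of 27 upstream kinases and factors that act on immediate early genes, 26 were tested, and 5 were higher and 4 lower in LIM1215-R1, against 4 and 1 in LIM1215-R2, beside 40.3% and 34.9% of well counted genes called in either direction. SRF, serum response factor, stood at 60.3 ± 1.46 CPM for parental cells, 87.4 ± 5.02 for LIM1215-R1 and 70.7 ± 1.91 for LIM1215-R2. SRF rose by 0.54 and 0.23 on the log2 scale (adjusted p = 1.92e-08 and 0.00275), and LIM1215-R2 was lower than LIM1215-R1 (log2 -0.31, adjusted p = 4.41e-04). Its ETS partner ELK4 rose by 0.22 and 0.32 (adjusted p = 0.00344 and 5.78e-05), and STAT3, which also acts on FOS, by 0.41 and 0.31 (adjusted p = 6.36e-08 and 4.68e-06). EGFR itself was lower in LIM1215-R1 (log2 fold change -0.26, adjusted p = 4.41e-05) and higher in LIM1215-R2 than in the other resistant line (0.31, adjusted p = 2.30e-05). The 5 genes higher in LIM1215-R1 were 3 without parental replicate 3 or LIM1215-R1 replicates 1 or 3, and the 1 lower in LIM1215-R2 became 2 without LIM1215-R1 replicate 2 and 4 with the GC and length trends removed. HRAS had 2 counts over all 9 libraries, though the study detected HRAS mutations by RNA sequencing of the resistant lines, so nothing is read from its count. An alternate sequence of hg38 holds a copy of the HRAS transcript. IER3 had copies on 5 alternate sequences and 2067 counts, and EIF4A1 had 0 copies and 0 counts. The cause of the low HRAS count was not tested.

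Of 34 known AP-1 target genes, 24 were tested, and 18 were higher and 1 lower in LIM1215-R1, against 17 and 1 in LIM1215-R2, beside 40.3% and 34.9% of well counted genes called in either direction. The median log2 fold change was 0.78 in LIM1215-R1 and 0.68 in LIM1215-R2, beside -0.01 and 0.00 over all genes tested. The list was put together with earlier results of these data known and is not independent evidence of its direction. TIMP1, an inhibitor of matrix proteases, rose from 4.06 ± 0.429 CPM to 25.1 ± 2.49 for LIM1215-R1 and 19.0 ± 1.85 for LIM1215-R2 (2.64 and 2.24, adjusted p = 4.56e-16 and 3.26e-14). ANXA1, a membrane-binding protein, rose from 17.6 ± 1.54 CPM to 90.5 ± 5.98 and 82.4 ± 3.16 CPM (2.35 and 2.22, adjusted p = 1.17e-19 and 3.74e-19). KRT7, a keratin of simple epithelia, rose from 0.713 ± 0.110 CPM to 4.50 ± 0.233 and 3.42 ± 0.194 CPM (adjusted p = 2.53e-10 and 1.29e-08). The 1 gene that fell, named after its values were seen, was PLAU, the plasminogen activator urokinase, by 0.64 and 0.66 on the log2 scale. The other 10 genes of the list, among them MMP3, MMP7, MMP9 and MMP10, had too few counts to be tested.

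Between the resistant lines 7 of the targets were lower in LIM1215-R2, beside 3.77% of all genes tested, and 1 was higher, beside 3.39%. EREG, which encodes the EGFR ligand epiregulin, stood at 34.5 ± 3.49 CPM for parental cells, 287 ± 18.3 for LIM1215-R1 and 139.5 ± 7.90 for LIM1215-R2 (LIM1215-R2 against LIM1215-R1, log2 -1.04, adjusted p = 6.04e-13).

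**Figure D4:**
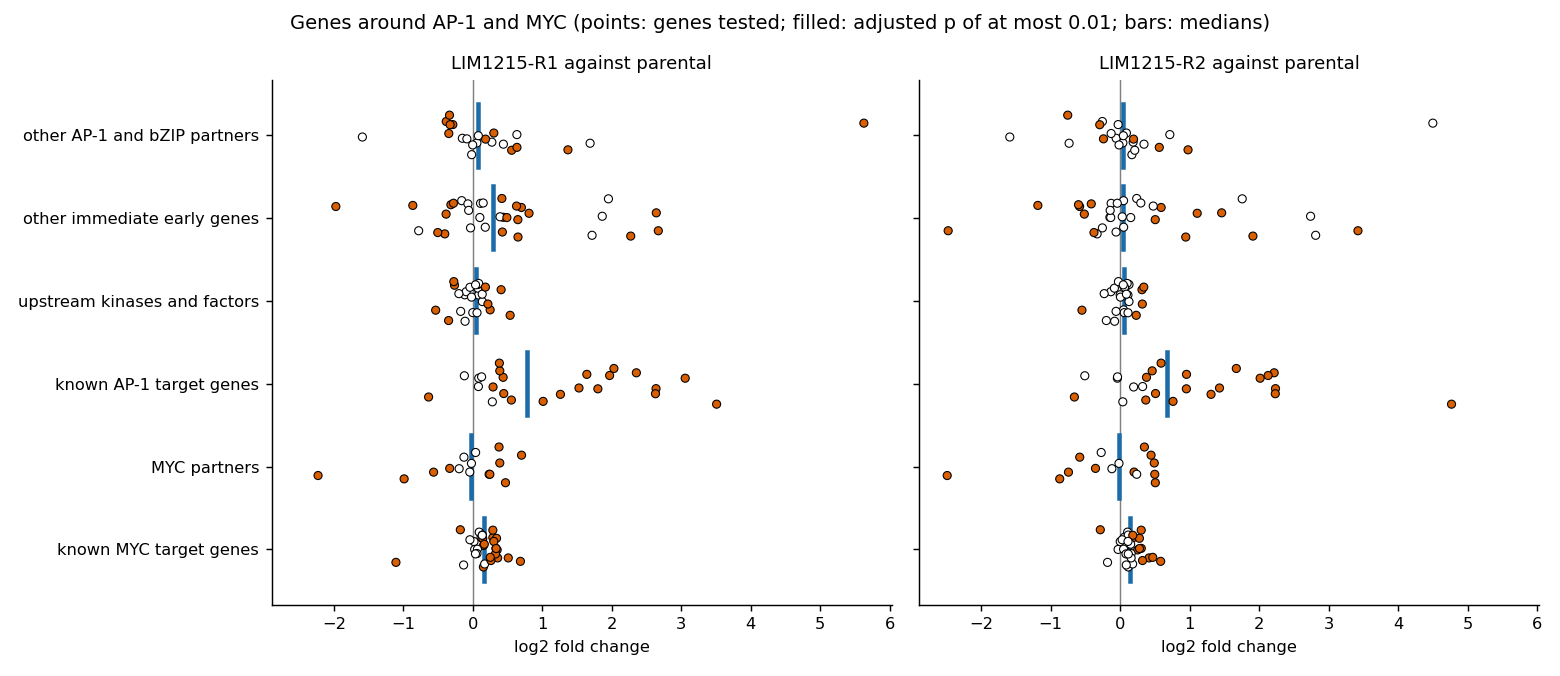
Log2 fold changes of the tested genes of 6 lists around the 10 genes, in LIM1215-R1 (left) and LIM1215-R2 (right) against parental cells; each point is 1 gene, filled where the adjusted p was at most 0.01, and blue bars are list medians. The median of the known AP-1 targets is 0.78 and 0.68, and those of the other lists lie between -0.02 and 0.29.

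Of 15 partner genes, all tested, the numbers higher and lower were 5 and 4 in LIM1215-R1 and 6 and 5 in LIM1215-R2, with medians of -0.02 in both, beside the same 40.3% and 34.9% of well counted genes called. MYCN, the paralogue of MYC, fell from 8.82 ± 1.17 CPM to 1.87 ± 0.183 and 1.57 ± 0.362 CPM (-2.23 and -2.49, adjusted p = 6.94e-11 and 1.46e-11). MLXIP, which senses glucose with MLX, fell from 265 ± 11.2 CPM to 134 ± 3.80 and 145 ± 5.70 CPM (-0.99 and -0.87, adjusted p = 2.37e-15 and 3.36e-14), while MLX rose by 0.47 and 0.51 on the log2 scale (adjusted p = 7.99e-08 and 2.00e-08). The MYC antagonist MXI1 fell by 0.57 and 0.74 (adjusted p = 5.04e-07 and 5.03e-09). MAX, the partner that MYC needs to bind DNA, was named after its values were seen, and it fell by 0.33 and 0.36 (adjusted p = 1.94e-05 and 8.33e-06). MYCBP2 and MGA were higher in LIM1215-R2 than in the other resistant line (log2 0.25 and 0.24, adjusted p = 0.00397 and 0.00516), beside 3.39% of all genes tested. No partner was higher there without any 1 of LIM1215-R1 replicates 2 and 3 and LIM1215-R2 replicates 1 and 2.

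Of 32 known MYC target genes, 31 were tested, and 18 were higher and 2 lower in LIM1215-R1, against 12 and 1 in LIM1215-R2, beside the same shares of well counted genes, with medians of 0.15 and 0.14. With the GC and length trends removed 19 were higher and 2 lower in LIM1215-R2. None was a DEG. SRM, spermidine synthase, rose from 94.0 ± 9.89 CPM to 151 ± 10.2 and 140.4 ± 7.00 CPM (0.69 and 0.58, adjusted p = 1.44e-09 and 3.03e-08). The ribosome biogenesis genes RRP9, BOP1 and POLR1B rose by 0.51, 0.33 and 0.29 in LIM1215-R1 and by 0.42, 0.30 and 0.30 in LIM1215-R2. TERT, the catalytic subunit of telomerase, stood at 13.5 ± 2.33 CPM for parental cells, 6.25 ± 0.527 for LIM1215-R1 and 11.9 ± 0.548 for LIM1215-R2 (log2 -1.11 in LIM1215-R1 against parental cells, adjusted p = 8.49e-08, and 0.93 in LIM1215-R2 against LIM1215-R1, adjusted p = 1.32e-05). CAD, an enzyme of pyrimidine synthesis, also stood above LIM1215-R1 in LIM1215-R2 (0.22, adjusted p = 0.00495). In that comparison 3 targets were called higher, beside 3.39% of all genes tested. Of these 3, 1 was left without LIM1215-R1 replicate 3 or LIM1215-R2 replicates 1 or 2.

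The genes lie apart in the genome. By RefSeq on GRCh38.p14, FOS is at chr14:75278828-75282230, FOSL1 at chr11:65892049-65900545, FOSL2 at chr2:28392858-28417317, JUN at chr1:58780791-58784047, JUNB at chr19:12791486-12793315 and JUND at chr19:18279694-18281622. ATF3 is at chr1:212565407-212620777, EGR1 at chr5:138465479-138469303, IER3 at chr6:30743199-30744547 and MYC at chr8:127735434-127742951. JUN, JUNB and JUND have a single exon, and the reference transcripts of FOS, FOSL1, FOSL2 and ATF3 have 4 exons each.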

How the data were processed

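Poly(A) RNA of 3 LIM1215 lines was sequenced from 9 stranded libraries. The authors used STAR (genome build hg38) and HTSeq 0.9.1 with reverse strandedness and deposited a table of raw counts, not normalized, for every library; the gene annotation is not given in the sources used here. Counts were analysed with edgeR 4.0.16 in R 4.3.3. Genes that summed to 10 or more counts were kept, counts were scaled with TMM, and the quasi-likelihood test was run on all 9 libraries with the 3 lines as groups and Benjamini-Hochberg adjustment over all 19102 genes. The call threshold was an adjusted p of 0.01, and DEGs also had to change by 1.5 or more on the log2 scale. CPM values use the TMM factors, and log2 CPM a prior count of 2. Each SE was derived from the log2 fold change and the F statistic of its test, and the 95% intervals from that SE with a t quantile. Levels per kilobase used the reference transcript of GENCODE release 44, and copies were sought on alternate sequences of hg38 (90% of the transcript at 98% identity). The test was tried on simulated counts first. No library was a copy of another.

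The members and gene lists were chosen with earlier results of these data known. Named beside the 10 members are, from each list, the 4 genes with the largest change called in both lines against parental cells, with at least 1 CPM in the highest line, the 2 with the largest change called between the resistant lines, and the 3 genes nearest in pattern to FOS, FOSL1 and EGR1. Alternatives were other filters, DESeq2 1.42.0 size factors or total counts, DESeq2's Wald test, fits to 6 libraries, a replicate block, each library left out, and other thresholds. Removal of GC content and length trends, library by library (values for 86.3% of genes tested and all 10 members), alone or with the replicate block, was added after seeing the data, as was the motif TGACATCA. Some genes that the naming rule picks are not reported here.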

Additional observations from a re-analysis of the deposited data

Results flagged for a closer look

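The change against parental cells differed between the resistant lines for 4 genes, by the test of LIM1215-R2 against LIM1215-R1 in edgeR. The log2 difference was -0.48 for ATF3, -0.35 for JUNB, -0.28 for JUND and -0.26 for FOSL2, each lower in LIM1215-R2. ATF3 rose in both lines against parental cells, JUNB and JUND passed in LIM1215-R1 and not in LIM1215-R2, and FOSL2 passed in LIM1215-R2 and stood at 0.911 times the parental level in LIM1215-R1 (95% interval 0.845 to 0.982, adjusted p = 0.046 in edgeR).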

How the results depend on the processing

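Over the 10 genes, 3 comparisons and 18 alternatives, 498 values kept their direction and their side of the threshold, 7 passed it newly in the same direction, 19 no longer passed it and 16 changed sign. Of these 16, JUND in LIM1215-R2 against parental cells also passed newly under both settings with the GC and length trends removed. FOS, FOSL1, JUN, ATF3 and IER3 kept their calls against parental cells throughout. At the DEG threshold the number of the 10 genes called was 0 in each direction and comparison. With the GC and length trends removed, the 6 genes higher in LIM1215-R1 than in parental cells became 4 and the 2 lower became 3. In LIM1215-R1 against parental cells, the 2 lower genes became 1 with at least 10 counts in every library, 1 in DESeq2 and 1 in the fit to the 6 libraries, and 1 to 3 with a library left out. Between the resistant lines, the 0 higher genes became 1 with an adjusted p threshold of 0.05, 1 with the GC and length trends removed, and 0 to 1 with a library left out, while the 4 lower genes ranged from 2 to 4. The values that changed sign were not called in the fit reported. For LIM1215-R2 against parental cells, removing the GC and length trends gave JUNB -0.116 and JUND -0.145, and with the replicate block as well -0.118 and -0.145. MYC was -0.003 with total counts alone. With a library left out JUNB ranged from -0.005 to 0.10, EGR1 from -0.053 to 0.052 and MYC from -0.019 to 0.065. For LIM1215-R2 against LIM1215-R1, FOSL1 was 0.029 and MYC 0.003 with the trends removed, and 0.030 and 0.003 with the replicate block as well. With a library left out MYC ranged from -0.061 to 0.002 and the difference in the log2 ratio of JUN to JUND from -0.015 to 0.142. The cause was not tested.

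Whether replicate numbers pair the libraries cannot be settled here, with 3 libraries per line and deviations taken from each line's own mean. Correlations of same-numbered deviations ranged from -0.173 to 0.538, and libraries did not always correlate best with their own number. For replicates 1, 2 and 3 they were 0.354, 0.538 and 0.036 between parental cells and LIM1215-R1. They were 0.214, -0.121 and -0.173 between parental cells and LIM1215-R2, and 0.329, -0.168 and -0.008 between the resistant lines. With the replicate block 6 genes were higher and 2 lower in LIM1215-R1, 4 and 2 in LIM1215-R2, and 1 and 4 between the resistant lines, where EGR1 was gained (0.28, adjusted p = 0.00949 in edgeR). Over all genes 2044 were called between the resistant lines with the replicate block, 2367 with the trends removed as well, and 872, 752 and 782 without LIM1215-R1 replicate 3, LIM1215-R2 replicate 1 and LIM1215-R2 replicate 2, against 648 higher and 720 lower in the fit reported. Counts of the members were at least 108 per library, and the low counts of NR4A3, KRT7 and FOSB limit their folds.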
